A study of Mus musculus with 24 samples.

Results

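The miR-10, miR-99 and miR-100 group holds 5 mature mouse miRNAs, mmu-miR-10a-5p, mmu-miR-10b-5p, mmu-miR-99a-5p, mmu-miR-99b-5p and mmu-miR-100-5p (written below without the species prefix), of 1221 mature names in the count table. Members were found by name, and all 5 are listed, in 53 isoform entries. They were measured in 24 small RNA libraries of 3T9 cells, immortalised fibroblasts from mouse embryos. In 21 libraries, cells were given 300 µM 4-thiouridine (4SU, a uridine analogue that growing RNA takes up) during a 3 h pulse, then 1 mM uridine for a chase of 0, 2, 4, 6, 8, 10 or 12 h, with 3 independent experiments at each time, and the labelled RNA was biotinylated and purified on streptavidin beads. The other 3 libraries, 1 of each kind, were total RNA of 4SU-pulsed cells (total 4SU), total RNA of cells without 4SU (total unlabelled), and RNA of cells without 4SU taken through the same purification (the negative extraction).

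A miRNA is cut from a hairpin in its primary transcript, is loaded into an Argonaute protein, and pairs with messenger RNAs mainly through its seed, the bases near its 5′ end. The miR-10 genes sit inside the Hox clusters, and their miRNAs are known to act on Hox transcripts. The miR-99 and miR-100 genes sit beside let-7 and miR-125 genes, and in human cells these miRNAs are known to act on transcripts of the growth kinase MTOR. After maturation, enzymes can add A or U to a miRNA's 3′ end, and exonucleases can trim it.

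The mature sequences are shown to make clear how close the members are, with the seed (bases 2 to 8) in capitals. All 5 members were matched in the RefSeq table for GRCm38.p6.

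miR-10a-5p: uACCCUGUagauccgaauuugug
miR-10b-5p: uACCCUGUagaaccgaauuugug
miR-99a-5p: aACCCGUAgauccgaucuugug
miR-99b-5p: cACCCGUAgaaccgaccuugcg
miR-100-5p: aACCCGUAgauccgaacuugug

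Both miR-10 sequences share the seed ACCCUGU, and the other 3 share ACCCGUA. Counting from 1 at the 5′ end, miR-10a-5p differs from miR-10b-5p by the single substitution U12A, and miR-99a-5p differs from miR-100-5p by U16A. Between miR-99a-5p and miR-99b-5p there are 4 substitutions, A1C, U11A, U16C and U21C. Removing the U at position 6 of miR-10a-5p leaves 2 mismatches to miR-100-5p, so the 2 seeds differ by a shift. The members hold 8 (miR-10a-5p), 7 (miR-10b-5p), 6 (miR-99a-5p), 3 (miR-99b-5p) and 5 (miR-100-5p) uridines, the bases that 4SU can replace.

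On GRCm38.p6, all on the plus strand, miR-10a-5p lies at chr11:96317186-96317208 with no annotated gene over it but its own, and miR-10b-5p lies at chr2:74726074-74726096 in introns of the homeobox genes Hoxd3 and Hoxd4. miR-99a-5p lies at chr16:77598940-77598961 in an intron of the noncoding host gene Mir99ahg. miR-99b-5p lies at chr17:17830194-17830215 in an intron of Spaca6, a gene named for the sperm acrosome. miR-100-5p lies at chr9:41531437-41531458 in introns of the noncoding genes 3110039I08Rik and Gm49317. Of genes on the minus strand, the protein-coding Gm11146 has miR-99a-5p in an intron, and the noncoding Gm48742 has miR-100-5p in an exon. Downstream of miR-99b-5p, let-7e-5p starts 172 bases and miR-125a-5p 623 bases away. let-7c-5p starts 732 bases and miR-125b-5p 47339 bases downstream of miR-99a-5p, and a second copy of miR-125b-5p starts 50503 bases downstream of miR-100-5p. miR-125b-5p is therefore counted from 2 gene copies.

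The members spanned more than 3 orders of magnitude in the purified libraries. Levels are CPM, the count scaled by the library's sum of miRNA counts, as mean ± SD over the 21 purified libraries. miR-99b-5p was at 27183 ± 5646 CPM and held rank 10 of 1221 names. miR-100-5p followed at 2834 ± 738 CPM (rank 38), miR-99a-5p at 81.0 ± 30.2 CPM (rank 145), miR-10a-5p at 16.9 ± 3.53 CPM (rank 234) and miR-10b-5p at 6.47 ± 3.41 CPM (rank 298). Of these neighbours, only the ranges of miR-10a-5p (9.27 to 22.3 CPM) and miR-10b-5p (1.09 to 12.1 CPM) overlapped. Together the members took 1.67 to 4.33% of the counts of a purified library, and miR-99b-5p alone made up 88.4 to 92.1% of that. Counts set the precision: miR-99b-5p had 17191 to 227393 counts per library, miR-10a-5p 22 to 123 and miR-10b-5p 4 to 54. The cells were counted in bulk, so fewer cells carrying a miRNA and less of it per cell cannot be told apart.

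Depth, the sum of miRNA counts, was 1133048 to 7886484 in the purified libraries and was lower at 12 h than at 0 h in every experiment. It was 4525638 in total 4SU, 6412428 in total unlabelled and 283922 in the negative extraction. In purified libraries 3 counts were worth 0.38 to 2.65 CPM. The experiment number coincides with a code in the table's second header line, which the labels do not explain: the negative extraction carries the code of experiment 1, and both total RNA libraries share another. Of the 5 fibroblast markers (miR-21a-5p, miR-143-3p, miR-145a-5p, miR-199a-3p and miR-214-3p), all were present, at a summed 109224 to 218883 CPM in the purified libraries. Of the epithelial markers, miR-205-5p stood at 198 to 1150 CPM in the purified libraries, 30.9 CPM in total 4SU, 182 CPM in total unlabelled and 648 CPM in the negative extraction, while the other 4 reached at most 1.72 CPM in a purified library. Blood markers summed to 1.27 to 6.87 CPM there, and the liver marker miR-122-5p reached 2.04 CPM. Muscle markers summed to 1.77 to 22.1 CPM, with miR-206-3p at up to 21.7 CPM, and the neuronal marker miR-9-5p stood at 0.883 to 8.54 CPM. The part of miR-205-5p in the results below was not tested.

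**Figure D1:**
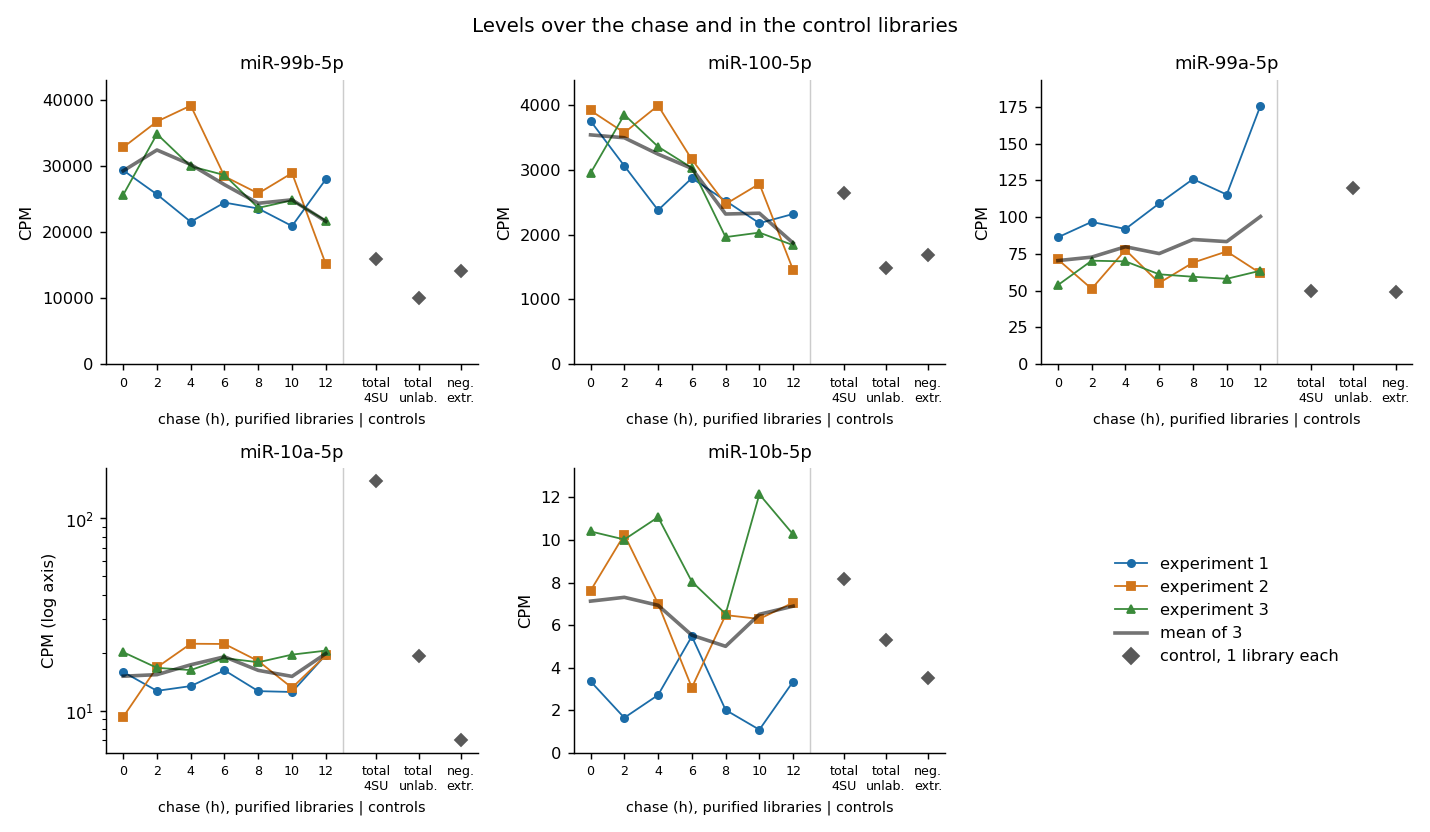
Level of each member in CPM (vertical axes from 0, except a log axis for miR-10a-5p) against hours of chase in the 3 experiments, with the mean of the 3 as a thick line and the 3 control libraries as diamonds on the right. miR-100-5p declines in the purified libraries, and miR-10a-5p is far higher in total 4SU (156 CPM) than in any purified library (at most 22.3 CPM).

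The slope over the chase asked whether a member gained or lost share among labelled miRNAs after the pulse. It is relative, with no spike-in, and is not a half-life. Of the 5 members, miR-100-5p alone passed in edgeR's quasi-likelihood test over 414 miRNAs, falling by 0.06 log2 per hour, while 51 of the 414 (12.3%) passed in either direction and 30 (7.25%) with a negative slope and 21 (5.07%) with a positive one. With the experiment as a block, miR-100-5p fell and miR-99a-5p rose, when 132 of 414 (31.9%) passed, 63 (15.2%) upward and 69 (16.7%) downward. The median slope was 0.0034 log2 per hour over the 5 members and -0.0037 over all 414 miRNAs. The split of calls depended on scaling: 21 of 51 rose with TMM, 10 of 57 with library totals alone and 39 of 63 with upper-quartile scaling. Library totals alone moved the median slope of all miRNAs to -0.02 log2 per hour.

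miR-100-5p had 3759, 3921 and 2952 CPM at 0 h in experiments 1, 2 and 3. By 6 h it had 2876, 3164 and 3035 CPM, and by 12 h 2322, 1455 and 1839 CPM. All 3 libraries at 12 h lay below all 3 at 0 h. The slope was -0.06 log2 per hour (SE 0.0146, edgeR adjusted p = 0.00813), and fitted by experiment it was -0.04, -0.08 and -0.06. With the experiment block, the edgeR adjusted p was 0.000187. In fits with no block, the call was lost without experiment 3 (adjusted p = 0.0878) and without the 12 h libraries (adjusted p = 0.0973). Set against 0 h alone, the 12 h libraries stood at 0.621-fold (log2 -0.69, SE 0.233, adjusted p = 0.151), which passed with the experiment block (adjusted p = 0.00625).

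miR-99b-5p, the most abundant member, had 29404, 32883 and 25674 CPM at 0 h, 24507, 28479 and 28677 CPM at 6 h, and 28034, 15172 and 21763 CPM at 12 h. The 12 h and 0 h libraries overlapped, and the lowest value was that of experiment 2 at 12 h. Its slope of -0.02 log2 per hour (SE 0.0160) did not pass (adjusted p = 0.381). With the block it did not pass either (edgeR adjusted p = 0.186). It did pass with library totals alone as the scaling (slope -0.04, adjusted p = 0.0452). The blocked slope passed once the 12 h library of experiment 1 was left out (slope -0.04, adjusted p = 0.0361). That library was the highest at 12 h, and the fit was chosen after seeing the data. The slope in experiment 1 was 0.00, against -0.06 and -0.01 in experiments 2 and 3.

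miR-99a-5p, which differs from miR-100-5p by a single base, had 176, 61.8 and 63.6 CPM at 12 h, against 86.2, 71.2 and 53.8 CPM at 0 h. Experiment 1 stood above the others at every time, and its 12 h library was the highest of all. The slope was 0.05 log2 per hour (SE 0.0216, adjusted p = 0.0999), and with the experiment block it passed (adjusted p = 0.00394), as it did from canonical counts alone (adjusted p = 0.0351). Without the 12 h library of experiment 1 the blocked slope was 0.03 (adjusted p = 0.0489). By experiment the slopes were 0.09, 0.02 and 0.02. How reads with a mismatch were assigned is not given in the sources used here, and the part of miR-100-5p reads in the miR-99a-5p count was not tested.

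miR-10a-5p had 19.5, 19.4 and 20.5 CPM at 12 h, against 15.9, 9.27 and 20.2 CPM at 0 h, with overlapping groups. Its slope of 0.04 log2 per hour (SE 0.0209) did not pass (adjusted p = 0.257, and 0.0957 with the block). miR-10b-5p had 3.35, 7.06 and 10.3 CPM at 12 h, against 3.36, 7.62 and 10.4 CPM at 0 h. At each time but 6 h, experiment 1 was the lowest, and the slope over all experiments was 0.00 (SE 0.0483, adjusted p = 0.974). With an SE of 0.0483 per hour, or 0.0275 with the block, a change of the size seen for miR-100-5p could be missed.

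In the contrast of 12 h against 0 h, 0 of 5 members passed in edgeR, against 5 of 414 miRNAs (1.21%), and 0 of 5 in DESeq2, against 15 of 414. In edgeR 1 member (miR-100-5p) had an unadjusted p under 0.05, as had 53 of the 414. With the block, miR-100-5p and miR-99a-5p (log2 0.67, adjusted p = 0.0161) passed, against 90 of 414 (21.7%), of which 40 (9.66%) were higher and 50 (12.1%) lower at 12 h. The blocked call of miR-99a-5p was lost with library totals as the scaling (adjusted p = 0.151). Without the block, its contrast was 0.74, and 0.0797 when the 12 h library of experiment 1 was left out. In experiment 2, miR-99a-5p was lower at 12 h than at 0 h.

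Ratios of counts within a library need no scaling between libraries. Over 17 pairs, the slope of the log2 ratio was tested by permuting hours over the 21 libraries (two-sided, 100000 resamples, Benjamini-Hochberg over the 17), and 9 passed, 5 of them among the 10 pairs of members. Pairs of other miRNAs were not tested, so no share over all pairs stands beside these counts. miR-100-5p fell against every partner with which it passed. Pairs that share a miRNA are not independent, so these falls are not separate results. The ratio of miR-100-5p to miR-99b-5p was 0.0828, 0.0959 and 0.0845 at 12 h, against 0.128, 0.119 and 0.115 at 0 h, with no overlap. Its slope was -0.04 log2 per hour (SE 0.0068, permutation adjusted p = 0.00051), and it was negative in each experiment (-0.04, -0.02 and -0.05). It stood at 0.165 in total 4SU, 0.149 in total unlabelled and 0.119 in the negative extraction.

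The ratio of miR-99a-5p to miR-100-5p was 0.0758, 0.0427 and 0.0347 at 12 h, against 0.0230, 0.0182 and 0.0182 at 0 h. It was higher at 12 h in all 3 experiments, with a slope of 0.11 log2 per hour (SE 0.0252, permutation adjusted p = 0.00293). In single libraries it was 0.0190 in total 4SU and 0.0803 in total unlabelled, the second above every purified library at 12 h. miR-10a-5p also gained on miR-100-5p (slope 0.10, SE 0.0214, permutation adjusted p = 0.000567) and on miR-99b-5p (slope 0.07, SE 0.0201, permutation adjusted p = 0.00853). The gain of miR-99a-5p on miR-99b-5p (slope 0.07, SE 0.0285) had a permutation adjusted p of 0.0469, and of 8.5e-05 with hours permuted within experiments. With hours permuted over all libraries, it did not pass without experiment 2 (0.225), without experiment 3 (0.102), without the 0 h libraries (0.0893) or without the 12 h libraries (0.263). The gain of miR-10a-5p on miR-99b-5p did not pass without experiment 2 (0.167), without the 12 h libraries (0.169) or from canonical counts only (0.134).

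Members were also set against let-7 and miR-125 guides of their clusters, miRNAs known for restraining growth programmes (let-7) and for roles in blood and muscle (miR-125). let-7a-5p and let-7c-5p also match loci on chromosomes 13 and 15, and miR-125b-5p has 2 copies, so these ratios are not specific to a cluster. miR-100-5p to miR-125b-5p had the smallest adjusted p of the 17 ratios. It was 0.383, 0.338 and 0.287 at 0 h, 0.231, 0.287 and 0.265 at 6 h, and 0.189, 0.139 and 0.144 at 12 h, with no overlap between 12 h and 0 h. The slope was -0.09 log2 per hour (SE 0.0100), with -0.08, -0.10 and -0.10 by experiment. Its permutation adjusted p of 0.00017 comes from 1e-05, the smallest p these resamples can give. Total 4SU had a ratio of 0.132 and total unlabelled 0.110, below every purified library at 0 h, 6 h and 12 h. miR-125b-5p itself rose (slope 0.03, edgeR adjusted p = 0.0363), and at 12 h against 0 h it passed with the block only (log2 0.41, adjusted p = 0.0132, against 0.243).

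miR-99b-5p fell against miR-125a-5p, from the same short stretch of chromosome 17 (slope -0.03, SE 0.00786, permutation adjusted p = 0.0108). The ratio at 12 h, 1.87, 1.29 and 1.52, overlapped that at 0 h, 1.78, 2.03 and 1.83, and the fall did not pass without experiment 2 (0.170) or without experiment 3 (0.156). miR-100-5p fell against let-7a-5p (slope -0.05, SE 0.0204, permutation adjusted p = 0.0281), but in experiment 1 the slope was 0.00, and the fall was lost without experiment 2 or 3 (0.225 and 0.203), without 0 h (0.0601) and without 12 h (0.0821). The ratios of miR-99a-5p to miR-125b-5p (0.669) and of miR-99b-5p to let-7e-5p (0.396) had permutation adjusted p above the threshold. miR-99a-5p to let-7c-5p passed only with hours permuted within experiments (adjusted p = 0.0102, against 0.201).

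**Figure D2:**
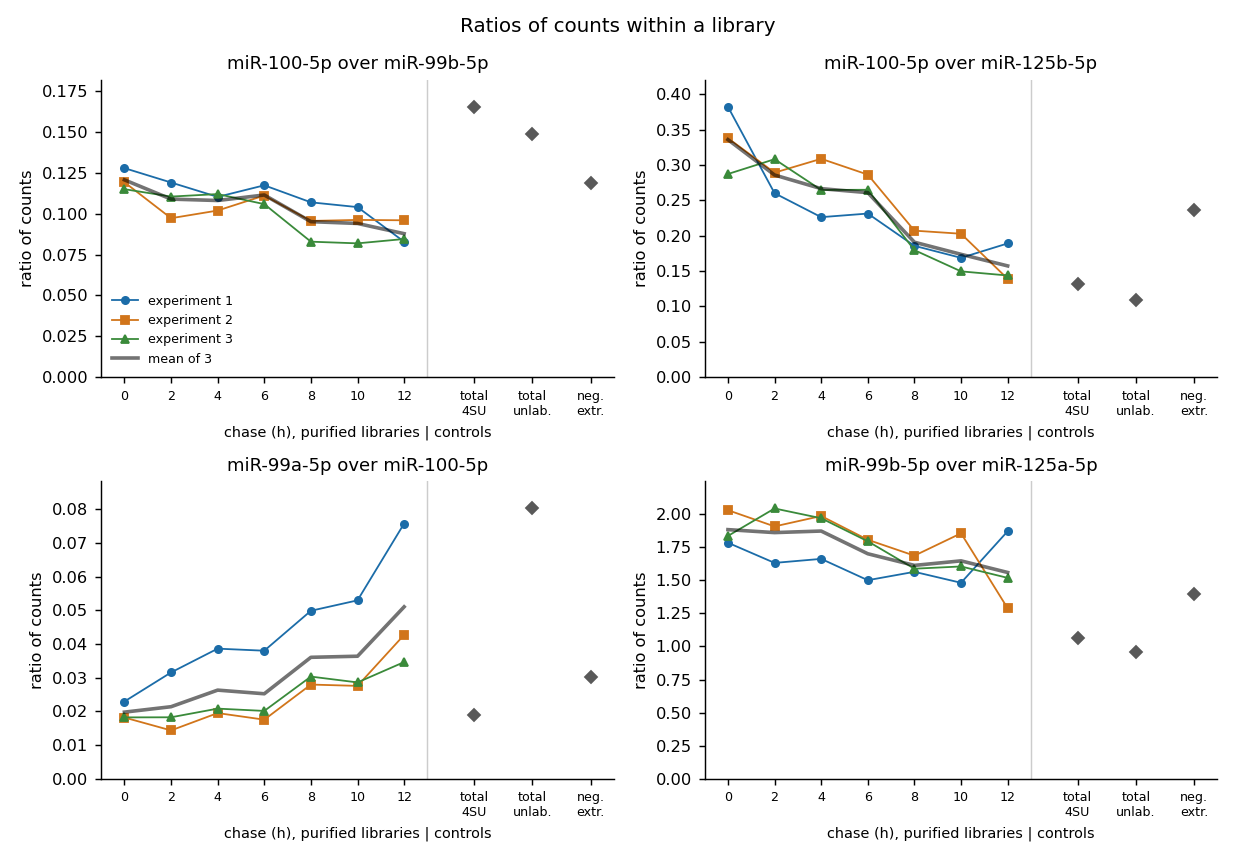
Ratio of counts within a library (vertical axes from 0) against hours of chase in the 3 experiments, with the mean of the 3 as a thick line and the 3 control libraries as diamonds. The upper panels show miR-100-5p falling against miR-99b-5p and miR-125b-5p, and the lower left panel shows miR-99a-5p gaining on miR-100-5p in every experiment.

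Of the other strands of the hairpins, miR-99b-3p was at 425 ± 54.0 CPM over the purified libraries (rank 83), above 3 of the 5 members, while miR-99a-3p (1.00 CPM), miR-100-3p (0.757 CPM) and miR-10a-3p (0.00761 CPM) were too low to be tested, and no level is given for miR-10b-3p. miR-99b-5p outnumbered miR-99b-3p by 35.3 to 75.3-fold in the 12 h libraries, against 59.1 to 81.3-fold in the 0 h libraries. It did so by 32.5-fold in total 4SU, 31.5-fold in total unlabelled and 35.5-fold in the negative extraction. The ratio fell over the chase (slope -0.04, SE 0.0125, permutation adjusted p = 0.00762), in all 3 experiments. The fall did not pass without experiment 2 (0.167) or from canonical counts only (0.491). The slope of miR-99b-3p itself, 0.02 log2 per hour, passed with the block only (edgeR adjusted p = 0.0473, against 0.580).

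The isoform classes of the table divide each miRNA into the canonical form, trimmed forms and forms with added bases. Pooled over the purified libraries, the canonical form made up 54.5% of miR-99b-5p, 69.6% of miR-100-5p and 78.7% of miR-99a-5p, but 23.8% of miR-10a-5p (95% Wilson interval 21.5 to 26.2%) and 12.6% of miR-10b-5p (9.84 to 15.9%). Trimmed forms were 71.4% of miR-10a-5p and 83.5% of miR-10b-5p, against 30.8% of miR-99b-5p, 18.5% of miR-100-5p and 18.4% of miR-99a-5p. Both miR-10 sequences are a base longer than the others in the RefSeq table. Additions at the 5′ end were at most 0.157% of any member. Intervals cover counting error only, as reads without molecular identifiers are not independent molecules.

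**Figure D3:**
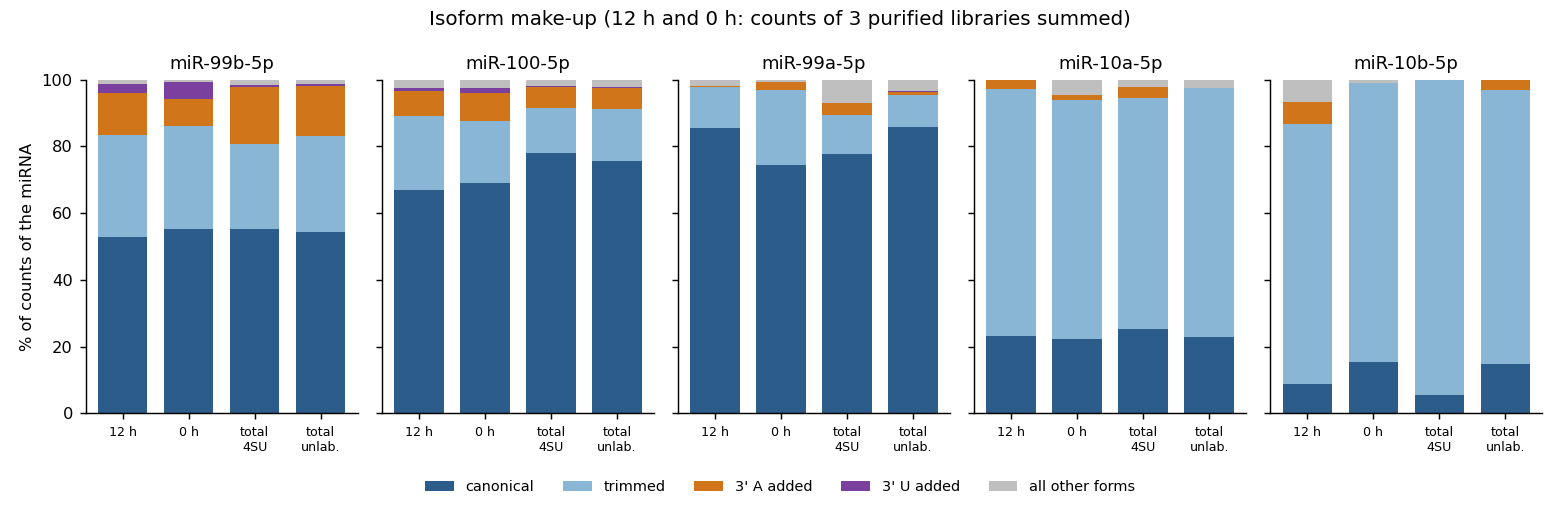
Share of each member's counts (vertical axis in %, from 0) in the canonical, trimmed, A-added, U-added and all other forms, for the summed 12 h and 0 h purified libraries, total 4SU and total unlabelled. Trimmed forms dominate both miR-10 miRNAs, and the U-added band is visible mainly in purified miR-99b-5p and miR-100-5p.

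Among the members, non-templated additions at the 3′ end were most frequent in miR-99b-5p, at 14.6% of its counts, and miR-100-5p, at 11.6%. At 0 h these 2 ranked 55 and 63 of 134 miRNAs with enough counts, whose median was 11.2%. The other members had 1.83% (miR-99a-5p), 2.28% (miR-10a-5p) and 1.08% (miR-10b-5p). A was the most frequent added base in each member, with 9.52% of miR-99b-5p and 8.45% of miR-100-5p counts. U made up 4.29% of miR-99b-5p and 1.15% of miR-100-5p. In RefSeq, the hairpin base that follows the mature end is U for both miR-10 miRNAs, G for miR-99a-5p and C for miR-100-5p. For miR-99b-5p no hairpin was available, so this base was not looked up. How an added base identical to the following hairpin base was classed is not given in the sources used here. No share is therefore read from the lack of such entries.

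The tails of miR-99b-5p changed over the chase in opposite directions. The share with added A was 7.85, 8.64 and 8.74% at 0 h, 10.2, 8.73 and 8.37% at 6 h, and 12.7, 12.3 and 12.6% at 12 h. The share with added U was 4.98, 4.84 and 4.59% at 0 h, 3.80, 4.80 and 4.74% at 6 h, and 2.64, 3.53 and 2.91% at 12 h. Neither share overlapped between 12 h and 0 h. On the log2 odds scale the A share rose by 0.05 per hour (SE 0.00822, limma adjusted p = 0.000267) and the U share fell by 0.06 per hour (SE 0.0101, limma adjusted p = 0.000428). Both kept their direction in each experiment, with 0.06, 0.04 and 0.05 for A and -0.08, -0.04 and -0.06 for U. In the negative extraction the A share was 13.2% and the U share 1.86%. The part of purification background in these slopes was not tested.

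This test ran over 911 shares of 171 miRNAs, of which 130 (14.3%) passed. Members had 17 of these shares, 8 for miR-99b-5p, 7 for miR-100-5p and 2 for miR-99a-5p, and those of the miR-10 miRNAs were too low to enter. Of the 17, 5 rose and 3 fell, but shares of a single miRNA overlap and sum to a whole, so they are not independent. The A share rose in 21 of 101 miRNAs (20.8%), and the rise of miR-99b-5p held rank 14 of the 101. The U share fell in 10 of 75 (13.3%), and miR-99b-5p held rank 68 of 75 counted from the highest slope. The median slope was 0.02 for A and -0.02 for U shares over all miRNAs, on the same scale.

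Other additions to miR-99b-5p rose too. Added C, with a median of 0.0997%, had a slope of 0.06 (limma adjusted p = 0.0139, as in 11.5% of 26 miRNAs), and mixed additions, with a median of 0.728%, had a slope of 0.05 (limma adjusted p = 0.000122, as in 12.1% of 99). All additions together rose by 0.02 per hour (limma adjusted p = 0.00898, as in 13.5% of 141 miRNAs), with 16.6 ± 0.324% at 12 h and 13.9 ± 0.396% at 0 h (SD, n = 3 each). The rise of all additions was lost without experiment 1 (0.0881), without experiment 3 (0.0525) and without the 12 h libraries (0.174), and that of added C without experiment 3 or the 0 h libraries (0.0992). The canonical share of miR-99b-5p had a slope of -0.01 (limma adjusted p = 0.279, and 0.0243 with the block, where 40 of 160 canonical shares or 25.0% fell and 287 of all 911 shares or 31.5% passed). The trimmed share had a slope of 0.00.

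In miR-100-5p the U tail fell, and the A tail did not pass the test. Its U share was 0.774, 0.970 and 0.623% at 12 h, against 1.48, 1.21 and 1.09% at 0 h, with no overlap. The slope was -0.05 log2 odds per hour (SE 0.0148, limma adjusted p = 0.0145), lost without experiment 1 (0.204), without experiment 3 (0.0525) and without 12 h (0.166). Its A share was 6.77, 7.88 and 8.72% at 12 h, against 8.14, 8.17 and 9.05% at 0 h, and its slope of -0.01 (SE 0.0109) did not pass (limma adjusted p = 0.444). The difference in A slope between the miRNAs was not tested. In miR-99b-3p, the other strand of the miR-99b hairpin, the A share rose (slope 0.04, SE 0.00918, limma adjusted p = 0.0092), with means of 46.9 ± 1.28% at 12 h and 39.8 ± 2.04% at 0 h (SD, n = 3 each).

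In miR-99a-5p the trimmed share fell and the canonical share rose. The trimmed share was 11.3, 5.71 and 18.0% at 12 h, against 24.4, 17.7 and 21.4% at 0 h. The canonical share was 86.7, 91.4 and 79.5% at 12 h, against 72.7, 79.1 and 75.4% at 0 h. The trimmed share fell by 0.09 log2 odds per hour (SE 0.0245, limma adjusted p = 0.0171) and the canonical share rose by 0.07 (SE 0.0223, limma adjusted p = 0.0275). The fall ranked 144 of 145 trimmed shares counted from the highest slope, of which 5 (3.45%) passed downward, and 7 of 160 canonical shares (4.38%) passed upward. Both calls were lost without experiment 3 (0.0525 trimmed, 0.0894 canonical) and without 12 h (0.140 trimmed, 0.262 canonical), and the canonical call without 0 h (0.0681). The 12 h shares of experiment 2 rest on 70 counts.

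**Figure D4:**
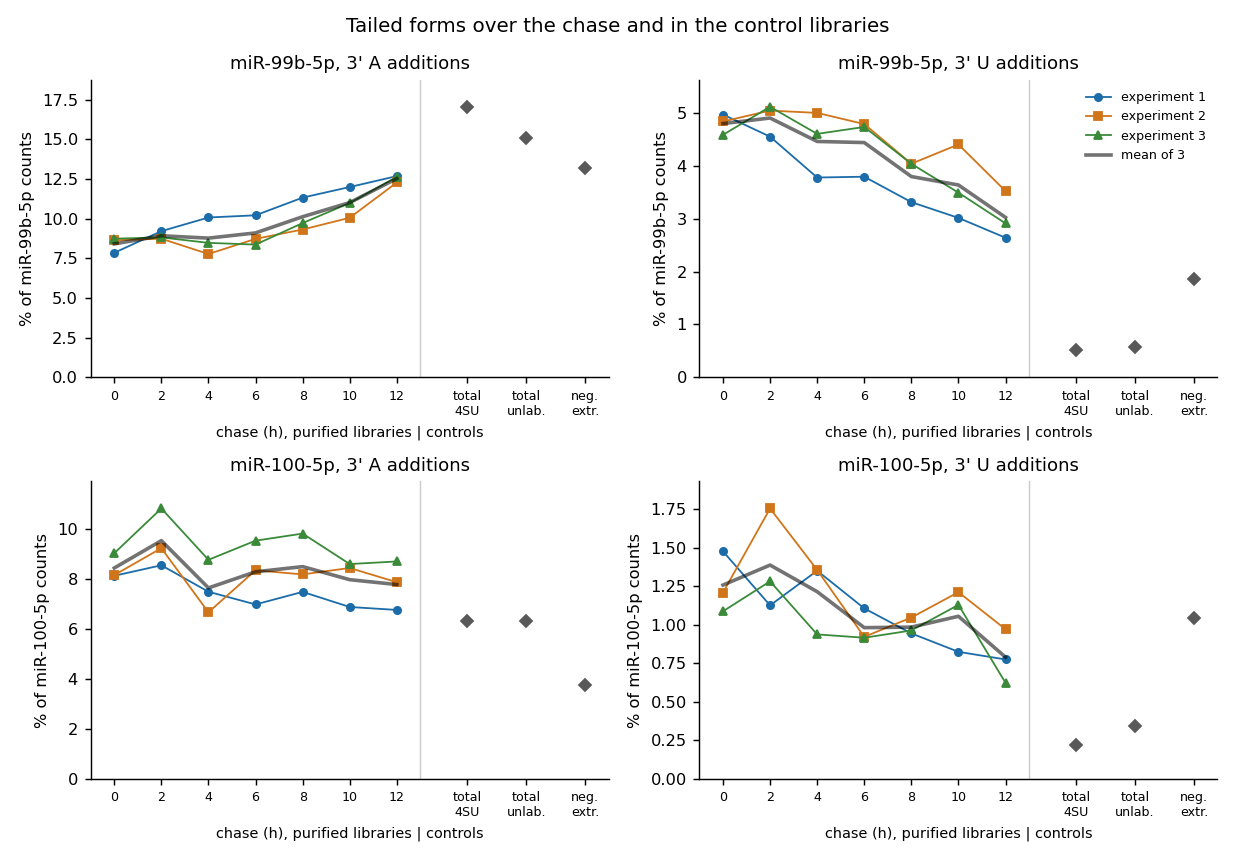
Share of miR-99b-5p (upper) and miR-100-5p (lower) counts with added A (left) or added U (right), in % from 0, against hours of chase in the 3 experiments, with the mean of the 3 as a thick line and the 3 controls as diamonds. For miR-99b-5p the A share climbs towards, and the U share falls towards, the values of all 3 controls. Of these, the negative extraction (A 13.2%, U 1.86%) lies nearest to the 12 h means (A 12.5%, U 3.03%).

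The tails of purified and total RNA differed widely. Added U made up 3.03 ± 0.453% of miR-99b-5p at 12 h and 4.80 ± 0.195% at 0 h (SD, n = 3 each), against 0.523% in total 4SU (Wilson interval 0.473 to 0.579%) and 0.565% in total unlabelled (0.509 to 0.625%). For miR-100-5p it was 1.26 ± 0.199% at 0 h, against 0.218% in total 4SU (0.149 to 0.319%) and 0.346% in total unlabelled (0.246 to 0.485%). The 0 h mean was 9.18 times the total 4SU share for miR-99b-5p and 5.77 times for miR-100-5p, the highest and the second highest of 71 miRNAs with enough counts, whose median was 1.35. In 27 of the 71 (38.0%), all 3 purified 0 h libraries lay above both total RNA libraries. Entry to the 71 asked for U-added counts in the purified libraries only. Their median, the ranks and the 38.0% could therefore lean towards purified RNA. The negative extraction lay between, at 1.86% for miR-99b-5p (1.49 to 2.33%) and 1.05% for miR-100-5p (0.448 to 2.43%).

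Added A went the other way in miR-99b-5p, at 8.41 ± 0.489% in the 0 h libraries (SD, n = 3), 17.1% in total 4SU and 15.1% in total unlabelled. All 3 purified 0 h libraries lay below both total RNA libraries there, as in 48 of 97 miRNAs (49.5%). In miR-100-5p the A share was above both totals, at 8.45 ± 0.515% in the 0 h libraries (SD, n = 3), 6.31% in total 4SU and 6.35% in total unlabelled, as in 10 of 97 (10.3%). Entry to the 97 likewise asked for A-added counts in the purified libraries only. Purified and total RNA libraries carry different codes in the header line, so code and purification cannot be told apart. Each control is a single library, and no test was made.

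The same controls were used to compare levels. Relative to total 4SU, miR-99b-5p was 1.83-fold (1.61 to 2.06 over the 3 experiments) in the 0 h libraries, miR-99a-5p 1.38-fold (1.08 to 1.73) and miR-100-5p 1.33-fold (1.12 to 1.49). All 3 lay above total 4SU in every experiment, as did 108 of 378 miRNAs (28.6%), whose median was 0.933-fold. Relative to total unlabelled, miR-99b-5p was 2.91-fold (2.56 to 3.28) and miR-100-5p 2.36-fold (1.98 to 2.63), but miR-99a-5p was 0.579-fold (0.450 to 0.722), so its direction turned with the total RNA library used. miR-10b-5p was at 0.787-fold of total 4SU (0.411 to 1.27) and at 1.21-fold of total unlabelled. miR-10a-5p was at 0.0922-fold of total 4SU (0.0594 to 0.129), and its ratio to total unlabelled lay between 0.483 and 1.05. At 12 h, miR-100-5p stood at 0.697-fold of total 4SU, the same as the median of 357 miRNAs (0.697-fold), and miR-99b-5p at 1.32-fold. The 0 h libraries stood 2.06-fold above the negative extraction for miR-99b-5p (14173 CPM there) and 2.09-fold above it for miR-100-5p (1684 CPM there), or 1.04 and 1.06 on the log2 scale, where the median of 327 miRNAs was 0.13. miR-10a-5p and miR-10b-5p had 2 and 1 counts there. Ratios of CPM compare the make-up of libraries, not the amount of RNA recovered, so they do not give the share of background in a purified library.

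Over total 4SU, the 0 h ratios of the members mostly fell as the number of uridines rose. They were 1.83-fold (miR-99b-5p, 3 uridines), 1.33 (miR-100-5p, 5), 1.38 (miR-99a-5p, 6), 0.787 (miR-10b-5p, 7) and 0.0922 (miR-10a-5p, 8). Over total unlabelled, miR-10b-5p at 1.21-fold lay above miR-99a-5p at 0.579-fold. The part of the number of uridines was not tested. miR-99b-5p, with 3, had the highest 0 h ratio of the members over either total RNA library. The lowest was that of miR-10a-5p, with 8, over total 4SU, and that of miR-99a-5p, with 6, over total unlabelled. Across 316 miRNAs with a sequence, Pearson's r between the number of uridines and the log2 ratio of 0 h to total 4SU was -0.03. It is a description over miRNAs that share their libraries.

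miR-10a-5p stood high in total 4SU. It had 706 counts there, or 156 CPM (Wilson interval 145 to 168), against 123 counts or 19.2 CPM (16.1 to 22.9) in total unlabelled. That 8.13-fold ratio was the highest of 378 miRNAs, of which 45 (11.9%) were at least 2-fold higher in total 4SU and whose median was 1.28-fold. The muscle marker miR-206-3p, with 39 counts in total 4SU and 13 in total unlabelled, also stood high (log2 2.09), and its part in the result was not tested. The canonical share of miR-10a-5p was 25.2% in total 4SU and 22.8% in total unlabelled, and the trimmed share 69.3% and 74.8%. miR-10b-5p, with 37 counts in total 4SU and 34 in total unlabelled, was at 1.54-fold. Of other miRNAs from Hox clusters, miR-196a-5p had 8 counts in total 4SU and 1 in total unlabelled, and miR-615-3p had 17 and 2. Both were thus also higher in total 4SU, the library of lower depth, but had too few counts to enter the 378. miR-196b-5p went the other way, with 152 CPM in total 4SU and 200 CPM in total unlabelled. miR-99b-5p was at 1.59-fold, miR-100-5p at 1.77-fold and miR-99a-5p at 0.418-fold in the same comparison, for which 20 of 378 (5.29%) were at least 2-fold lower in total 4SU. TMM scaling over all 24 libraries moved the median of these ratios by -0.40 on the log2 scale, and all 5 members kept their direction.

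**Figure D5:**
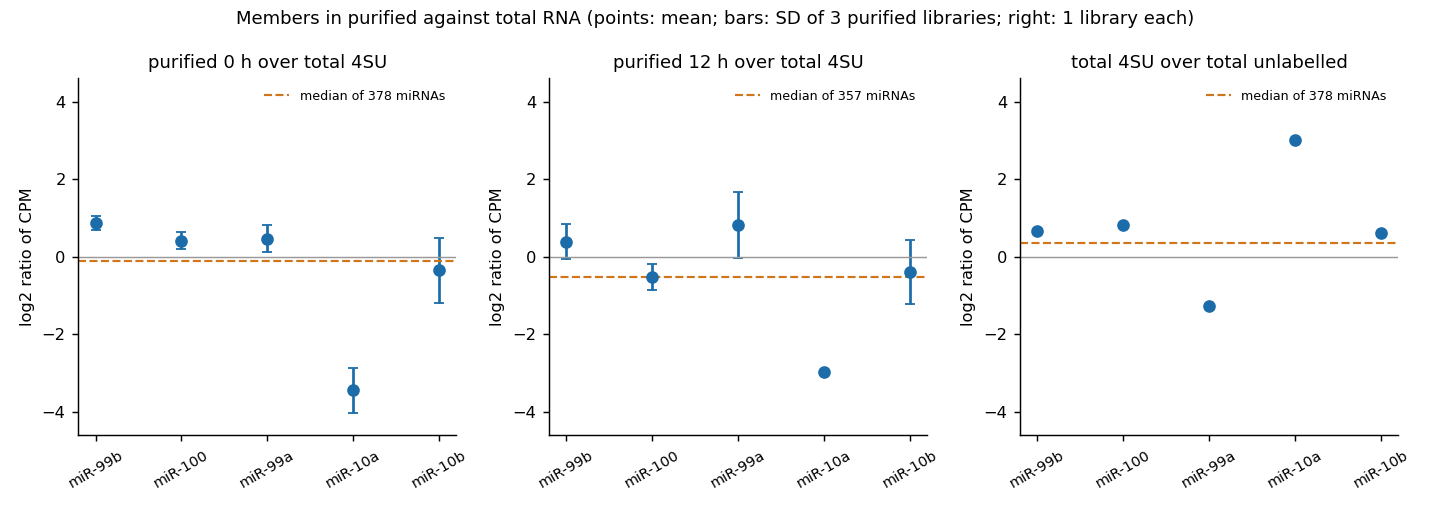
Log2 ratio of CPM for each member in purified 0 h libraries over total 4SU, purified 12 h libraries over total 4SU, and total 4SU over total unlabelled. Points are means and bars the SD of 3 purified libraries (no bar on the right, with 1 library each), and dashed lines mark the median of 378, 357 and 378 miRNAs. miR-10a-5p is low in the purified libraries relative to total 4SU, where it is 8.13-fold higher than in total unlabelled.

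The miRNAs whose levels moved most like each member were named by Pearson's r of log2 CPM over the 21 purified libraries after removing each experiment's mean, as a description of libraries that share the chase. miR-100-5p was closest to miR-501-3p (r = 0.95), miR-195a-3p (0.87) and miR-99b-5p (0.84). miR-99b-5p was closest to miR-501-3p (0.86), miR-100-5p (0.84) and its neighbour miR-125a-5p (0.80). miR-99a-5p was closest to miR-191-5p (0.84), miR-148b-3p (0.83) and miR-151-3p (0.78), and miR-10a-5p to miR-486a-5p (0.82), miR-486b-3p (0.76) and miR-181b-5p (0.74). miR-10b-5p, with the fewest counts, had no r above 0.61, reached with miR-152-5p.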

How the data were processed

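The authors deposited raw read counts per miRNA isoform class, 1 column per library. Per the submitters' processing notes, bases were called with CASAVA 1.8.0. The sources used here do not give the aligner, the miRNA annotation or the class definitions. From 7129 entries, 1 duplicate was removed, and totals or repeats equal to other entries (25728 of 25728 cells equal) were used once. Counts were summed per mature miRNA and scaled to CPM by library total. Slopes and contrasts used edgeR 4.0.16 (R 4.3.3; TMM, filterByExpr by time point, 414 miRNAs), DESeq2 1.42.0 as an alternative, isoform shares limma 3.58.1 on log2 odds (pseudocount 0.5, mean class count of at least 20 and mean miRNA count of at least 200), ratios permutation (pseudocount 0.5), all with Benjamini-Hochberg adjustment over everything tested and a threshold of 0.05. The edgeR, limma and permutation steps were tested on simulated data. Controls, with 1 library each, had no test. Ratios to total RNA covered tested miRNAs with at least 10 counts in each total RNA library and counts in all 0 h libraries. Tail shares there needed a mean class count of at least 20 and a mean miRNA count of at least 200 in the purified libraries. In each total RNA library they needed at least 200 counts of the miRNA, with no minimum for the class.

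Experiment numbers pair the libraries: deviations from time-point means correlated at 0.311 to 0.738 in all 63 same-experiment pairs, so blocked fits are given where they change a call on a member or on a named partner. Fits that leave out libraries or experiments carry no block unless stated. Members and lists were chosen with earlier results of these data known. Named miRNAs were the members, their other arms, let-7 and miR-125 partners, Hox cluster miRNAs and the 3 closest profiles per member.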

Additional observations from a re-analysis of the deposited data

How the results depend on the processing

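Of the 414 miRNA slopes, 51 passed. The replicate block gave 132, library totals with the block 147, and leaving out the 0 h or 12 h libraries 14 or 21. Fits chosen after seeing the data gave 92 (block without 0 h), 133 (block with upper-quartile scaling) and 127 (block without the 12 h library of experiment 1). Leaving out a replicate gave 15 (without experiment 3) to 79 (without experiment 2). For 12 h against 0 h, 5 passed, against 90 with the block, 15 by DESeq2, 14 with library totals, 101 with totals and block, 8 with upper-quartile scaling, 10 with no filter, 0 in the 6 libraries alone, and 0 to 12 leaving out a replicate. Isoform shares passing were 130, against 287 with the block, 84 without 0 h, 67 without 12 h and 64 to 150 leaving out a replicate. The 9 ratios became 4 to 9 leaving out a replicate.

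The slope of miR-10b-5p turned negative with library totals (-0.0165), totals and block (-0.0170), no filter (-0.0022), without 12 h (-0.0115) and with the block without the 12 h library of experiment 1 (-0.0054), and ranged from -0.0224 to 0.0200 leaving out a replicate. Its 12 h contrast was -0.0487 with totals, -0.0421 with totals and block, and -0.300 to 0.580 leaving out a replicate. From canonical counts its ratios turned to 0.777 (0 h purified over total 4SU) and -0.762 (total 4SU over total unlabelled). The 12 h contrast of miR-99b-5p ranged from -0.448 to 0.144 leaving out a replicate, that of miR-99a-5p from 0.0797 to 1.08, and the miR-99b-5p trimmed share slope from -0.0064 to 0.0032. Without 12 h, miR-100-5p share slopes were 0.0067 (canonical) and -0.0028 (trimmed). Ratio slopes that turned, none of which had passed, were miR-10a-5p over miR-99a-5p (-0.0223 to 0.0231 leaving out a replicate), miR-99a-5p over miR-125b-5p (-0.0034 to 0.0277, and -0.0023 without 12 h) and miR-10b-5p over miR-99b-5p (-0.0160 without 12 h). The cause was not tested. The block changed no other call on a member than those given. Without experiment 1, the shares of miR-99a-5p gave no value, as too few counts passed the filter. The few counts of both miR-10 miRNAs limit what could be seen.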
